A study of Drosophila melanogaster with 4 samples.

Results

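The mitochondrial ribosomal protein genes were taken as every gene whose deposited symbol begins with mRpL or mRpS followed by a number, which gave 73 of the 17490 genes of the table, 47 named for the large and 26 for the small subunit. Ribosome-bound mRNA was recovered from fly ovaries by translating ribosome affinity purification (TRAP), in which a GFP-tagged protein of the cytoplasmic large ribosomal subunit is expressed in chosen cells and pulled down with an anti-GFP antibody together with the mRNA being translated. The soma libraries came from females of the genotype tj:gal4, UAS RPL10-GFP, whose driver is active in somatic cells such as the follicle cells around each germline cyst. The germline libraries came from females of the genotype Nos:Gal4Vp16, UAS:RPL10-GFP, whose driver is active in germ cells. Each group had 2 libraries, made from ovaries pooled over many females. The groups share the tagged ribosomal protein and differ in both driver and cell type, so the effects of these cannot be told apart.

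Mitochondria keep a small genome of their own, and the few proteins it encodes, all of them subunits of the respiratory chain and ATP synthase, are made inside the organelle by the mitochondrial ribosome. The proteins of that ribosome are encoded in the nucleus, translated on cytoplasmic ribosomes and imported. Some descend from bacterial ribosomal proteins and others exist only in mitochondria. In the fly ovary, mitochondria multiply in the germline and are passed to the egg, while follicle cells have their own.

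Values are FPKM, fragments per kilobase of exon, so that levels can be compared between genes. The authors scaled them by a factor for each library, whose basis is not given in the sources used here. Recovered whole reads, apart from rRNA, numbered 17013813 in the first soma library, 629199 in the second, and 1194623 and 1313996 in the germline pair. Soma replicate 2 was thus the shallowest, and rRNA took 6.22% of all recovered reads in soma replicate 1 and 55.6 to 74.3% in the other libraries. Of 9 follicle cell markers in the table, 8 were higher in both soma libraries than in both germline libraries, with summed levels of 2687 and 3502 FPKM in the soma, against 244.9 and 203.2 FPKM in the germline. Of 11 germ cell markers, 9 were lower in both soma libraries, with sums of 232.6 and 189.7 FPKM in the soma, against 453.3 and 523.8 FPKM in the germline, so markers of each cell type were also present in the libraries of the other. Muscle sheath markers summed to at most 8.92 FPKM and fat body markers to at most 2.41 FPKM in any library, with Fbp1 and Lsp2 at 0 throughout. Haemocyte markers summed to at most 0.0218 FPKM, with Sr-CI and NimC1 at 0 in every library. The part of this in the results below was not tested.

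Nearly the whole set was present in both fractions. Of the 73 genes, 70 were above 0 in all 4 libraries, 69 had at least 1 FPKM in all of them, and 69 had a mean over the 4 libraries between 5 and 50 FPKM. The gene mRpL53, which encodes a mitochondria-specific protein of the large subunit, is listed at 0 in every library, and mRpL34 and mRpL55 are listed at 0 in soma replicate 2 alone. All exon bases of mRpL53, on chromosome arm 2R of BDGP6.54 from 13954195 to 13955664, are shared on the same strand with exons of other genes, a property whose part in the 0 was not tested. The other 72 genes passed the filter on low values (a mean of at least 0.1 FPKM), the lowest being mRpL34 at 1.54 FPKM, and none of the 72 was near that limit.

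The median level of the 72 genes was 15.9 and 17.4 FPKM in the soma, against 22.99 and 17.8 FPKM in the germline, replicate 1 first. These medians stood at percentiles 74.0 and 74.0 of all genes tested for the soma, against 81.1 and 76.8 for the germline. Summed over the set, the levels were 1300 and 1545 FPKM in the soma, against 1805 and 1438 FPKM in the germline, so the sums of the 2 groups overlapped. The SD of the log2 levels of these genes was 0.78 and 1.76 in the soma, against 0.98 and 0.92 in the germline. Over the 4696 tested genes with a mean of 5 to 50 FPKM it was 0.99 and 1.22 in the soma, against 1.35 and 1.34 in the germline. The set was thus less spread than genes of like level except in soma replicate 2. A member of the set had a median of 18 reads there, against 564 in soma replicate 1 and 53.5 and 53 in the germline.

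**Figure D1:**
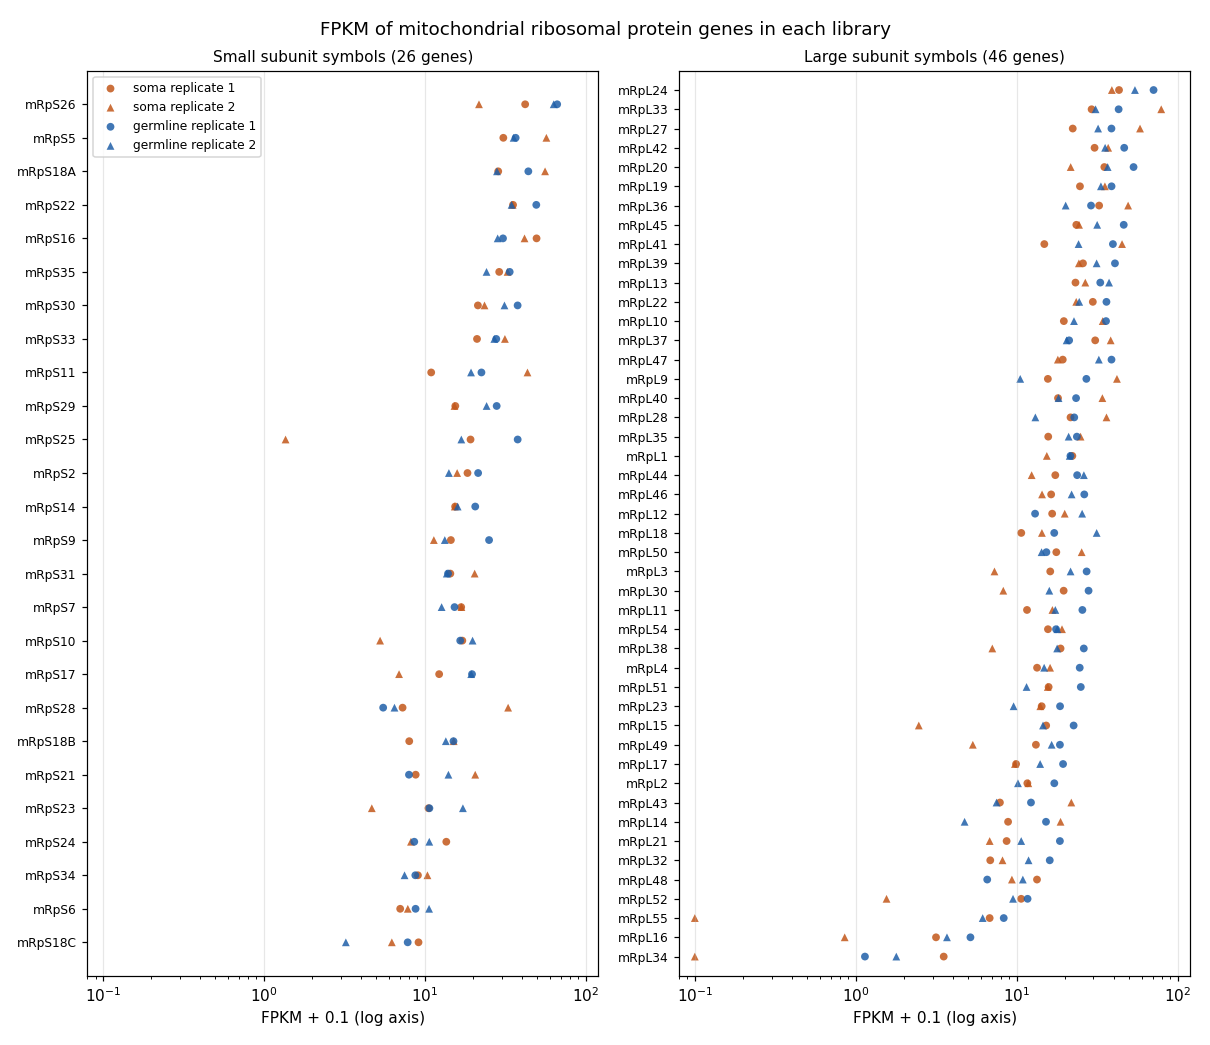
FPKM + 0.1 (log axis) of the 72 tested mitochondrial ribosomal protein genes in each library, small subunit symbols on the left and large subunit symbols on the right, ordered by mean level. Soma libraries are orange and germline libraries blue, circles are replicate 1 and triangles replicate 2. The points far to the left are nearly all soma replicate 2, for genes with 3 reads or fewer there.

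The highest mean levels belonged to mRpL24, mRpS26, mRpL33, mRpS5 and mRpS18A. The gene mRpL24, on 2L from 4944256 to 4945361, encodes the relative of a bacterial protein near the exit of the ribosome's peptide tunnel, and had 43.1 and 38.9 FPKM in the soma, against 70.8 and 54.2 FPKM in the germline. The gene mRpS26 (3L, 18106579 to 18107499), for a mitochondria-specific protein of the small subunit, had 42.0 and 21.6 FPKM in the soma, against 66.4 and 63.2 FPKM in the germline. For both genes the 2 soma values lay below the 2 germline values. In mRpL33 (X, 4321764 to 4322231), a relative of a small bacterial large-subunit protein, the order depended on the library, with 29.1 and 79.0 FPKM in the soma, against 42.9 and 30.8 FPKM in the germline. The gene mRpS5, whose bacterial relative lies at the mRNA entry channel, overlapped in the same way, with 30.7 and 56.9 FPKM in the soma, against 36.6 and 35.6 FPKM in the germline. Without soma replicate 2 the log2 fold change turned to -0.32 for mRpL33 and to -0.23 for mRpS5. The means of the 5 genes lay between 39.1 and 51.8 FPKM, and their spread differed. The SD of the soma replicates was 35.3 FPKM for mRpL33 and 2.98 FPKM for mRpL24. The order of the 5 genes was not tested, and within the germline both values of mRpS26 lay above both of mRpL33.

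The lowest levels above 0 were those of mRpL34, mRpL16, mRpL55 and mRpS18C, while the 0 listed for mRpL53 is not read as a level. The gene mRpL34 (2R, 16098948 to 16099337), with the shortest exons of the set at 327 bases, had 3.42 and 0 FPKM in the soma, against 1.04 and 1.69 FPKM in the germline, from 48, 0, 1 and 2 reads. The gene mRpL16 (X, 1890256 to 1891482), whose bacterial relative lies near the tRNA site of the large subunit, had 3.05 and 0.754 FPKM in the soma, against 5.06 and 3.59 FPKM in the germline. Exon length and mean level had a Spearman correlation of 0.17 over the 72 genes, which share the same 4 libraries, given as a description.

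The comparison of soma with germline used limma on log2(FPKM + 0.1) over all 8823 genes that passed the filter, with Benjamini-Hochberg adjustment over all of them. No mitochondrial ribosomal protein gene was called at an adjusted p under 0.05, with 0 of 72 higher and 0 of 72 lower in the soma, while 8.64% of all genes tested were called higher and 3.59% lower. An unadjusted limma p under 0.05 was reached by 9 genes of the set, against 27.8% of all genes tested. Of the 9 genes, 2 were higher and 7 lower in the soma, while over all 8823 genes 1478 were higher and 972 lower. On the reads recovered from the FPKM, limma-voom also called 0 genes of the set in each direction after adjustment. Over the 8517 genes of that fit it called 918 higher and 656 lower. At an unadjusted p under 0.05 in limma-voom, 0 genes of the set were higher and 6 lower. The unadjusted share over all genes of that fit is not given here, so this split is not read as a lean of the set. A change of more than 5-fold at an unadjusted p under 0.05 was reached by 0 genes of the set in either direction, while 9.41% of all genes passed that pair of cut-offs upwards and 1.08% downwards. The 0 did not hold without soma replicate 1, where the shallow soma replicate 2 stands alone for the soma. The shares over all genes given here belong to the fit on all 4 libraries and cannot be set beside that fit. With 2 libraries against 2, the smallest two-sided exact permutation p for a single gene is 0.333. The paper calls the replicates biological, without saying whether they came from separate dissections, and the p-values measure the spread between these libraries. In a pulldown from whole ovaries, fewer cells of a type and less RNA per cell cannot be told apart.

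A missed threshold does not show equal levels, and the intervals say how far the ratio between the libraries was bounded for each gene. They do not bound the difference between pure cell types, because germ cell markers were also present in the soma libraries. Those markers summed to 232.6 and 189.7 FPKM in the soma, against 453.3 and 523.8 FPKM in the germline. The 95% interval of the fold change lay within 5-fold either way for 65 of the 72 genes, within 3-fold for 49 and within 2-fold for 13. The estimates themselves were within 2-fold either way for 61 genes, more than 2-fold higher in the soma for 1 gene and more than 2-fold lower for 10. The median standard error was 0.37 on the log2 scale, and the largest, 1.76, was that of mRpL55.

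**Figure D2:**
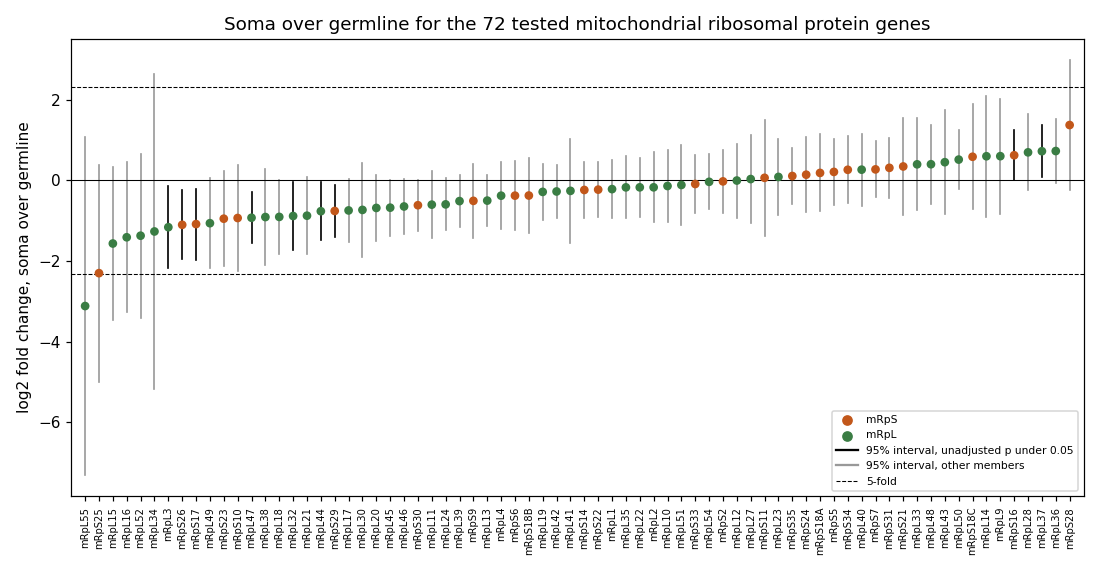
Log2 fold change of soma over germline (limma, log2(FPKM + 0.1)) for the 72 tested genes, ordered from low to high, with 95% intervals as vertical lines. Dashed lines mark 5-fold either way, and black intervals have an unadjusted p under 0.05, which 2 genes above 0 and 7 genes below it reached.

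The estimates of the set leaned to lower soma values by a small amount. The median log2 fold change was -0.25, which is 0.842-fold, against 0.04 over all genes tested, with 24 positive and 48 negative estimates. Genes of like level leaned the same way, since the 4696 tested genes with a mean of 5 to 50 FPKM had a median of -0.10, with 45.5% positive. Both soma values lay above both germline values for 8 genes of 72, where 29.6% of all genes did, and below them for 23 genes, or 31.9%, where 25.8% of all genes did. Among the genes with a mean of 5 to 50 FPKM these shares were 28.7% above and 33.97% below, so the 23 genes were no larger a share than among genes of like level. In the remaining 41 genes the groups overlapped. The size of the lean differed between the germline libraries, of which replicate 1 exceeded replicate 2 for 59 of the 72 genes. Taken library by library, the median log2 ratio was -0.54 for soma replicate 1 over germline replicate 1 and -0.42 for soma replicate 2 over it, but -0.11 and -0.06 for the same soma libraries over germline replicate 2. Without germline replicate 1 the median fold change was -0.07 on the log2 scale, and without germline replicate 2 it was -0.46.

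Symbols of the small subunit had a median log2 fold change of -0.06, with 12 of 26 positive, and those of the large subunit -0.33, with 12 of 46 positive. The median of the mean levels was 16.0 FPKM in the soma, against 18.7 FPKM in the germline for the small subunit, and 16.4 FPKM in the soma, against 21.04 FPKM in the germline for the large. Genes with a bacterial counterpart (43) and genes specific to mitochondria (29 tested) had medians of -0.22 and -0.27. Of the genes related to bacterial S18, only mRpS18C was counted as a counterpart, and mRpS18A and mRpS18B were counted as specific to mitochondria. By chromosome arm, the 11 genes on X had a median of -0.73, against -0.02 over all genes tested on X. Of these 11 genes 2 were positive and 5, or 45.5%, were lower in both soma libraries than in both germline libraries, against 28.3% of all genes tested on X. Their median level was 18.6 and 8.16 FPKM in the soma, against 27.1 and 16.8 FPKM in the germline, so the first soma library lay above the second germline library and the shallow soma replicate 2 was lowest, with a median of 12 reads. The arms 2L, 2R, 3L and 3R gave medians of -0.13, -0.27, -0.17 and -0.22. A high share was not particular to X. On 3L, 7 of 17 genes, or 41.2%, were lower in both soma libraries, against 24.1% of all genes tested there. That share was 25% on 2L, against 23.6%, and 27.3% on 2R, against 24.6%. On 3R it was 23.8%, against 28.2%. No difference between these classes was tested.

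The 6 genes with the highest soma over germline estimates were mRpS28, mRpL36, mRpL37, mRpL28, mRpS16 and mRpL9. The gene mRpS28 (2R, 18614210 to 18615018), a small subunit gene, had 7.18 and 32.9 FPKM in the soma, against 5.42 and 6.39 FPKM in the germline, from 213, 28, 11 and 16 reads. Its log2 fold change was 1.37 (SE 0.68), or 2.59-fold, with an adjusted p of 0.249 in limma. Both soma values were higher than both germline values, but the soma libraries differed from each other by more than soma replicate 1 did from the germline. The gene mRpL37 (3R, 10782563 to 10784092), for a mitochondria-specific protein, had 30.7 and 38.3 FPKM in the soma, against 21.1 and 20.3 FPKM in the germline. Its fold change was 1.65, with a 95% interval of 1.06 to 2.57 and an adjusted p of 0.136 in limma.

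The gene mRpS16, whose bacterial relative helps fold the small subunit RNA, had 49.4 and 41.6 FPKM in the soma, against 30.5 and 28.3 FPKM in the germline (limma adjusted p = 0.174), with the smallest standard error of the set, 0.26 on the log2 scale. The gene mRpL36, for a small zinc-binding protein in bacteria, had 32.4 and 49.2 FPKM in the soma, against 28.9 and 20.1 FPKM in the germline, again without overlap. In mRpL28 and mRpL9, both with bacterial relatives, the groups overlapped. The level of mRpL28 was 21.5 and 36.05 FPKM in the soma, against 22.7 and 12.96 FPKM in the germline, and that of mRpL9 was 15.5 and 41.9 FPKM in the soma, against 27 and 10.4 FPKM in the germline. The direction of mRpL9 turned to -0.11 on the log2 scale without soma replicate 2 and to -0.08 without germline replicate 2.

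The 6 genes with the lowest estimates, mRpL55, mRpS25, mRpL15, mRpL16, mRpL52 and mRpL34, each had 3 reads or fewer in soma replicate 2, and 2 of them a 0 there, for which the estimate depends on the pseudocount. The mitochondria-specific gene mRpL55 (3R, 19094394 to 19094905) had 6.69 and 0 FPKM in the soma, against 8.21 and 6.05 FPKM in the germline. A floor of 3 reads was worth 5.34 FPKM for it in soma replicate 2, so the 0 leaves levels close to the other libraries possible. The group means of mRpL55 were 3.35 FPKM in the soma, against 7.13 FPKM in the germline, a ratio of 0.47, while its log2 fold change was -3.12, and -1.54 with a pseudocount of 1 FPKM. Without soma replicate 2 it was -0.07. The mitochondria-specific gene mRpS25 (X, 14582136 to 14582982) had 19.2 and 1.27 FPKM in the soma, against 37.7 and 16.8 FPKM in the germline, and the low soma value was 1 read. Its exact 95% Poisson interval reached up to 7.05 FPKM, counting error only, which is below the other libraries. The log2 fold change of mRpS25 was -2.30 (SE 1.13, adjusted p = 0.244 in limma).

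The gene mRpL15, with a bacterial relative in the large subunit core, had 15.1 and 2.36 FPKM in the soma, against 22.5 and 14.5 FPKM in the germline, and 3 reads stood behind the low value. The mitochondria-specific gene mRpL52 had 10.6 and 1.45 FPKM in the soma, against 11.6 and 9.39 FPKM in the germline, the low value again being 1 read. Without soma replicate 2 the log2 fold change of mRpL52 was 0.02 and that of mRpL34 was 1.30, both turned in sign. For mRpL34 the group means also ran the other way, at 1.71 FPKM in the soma, against 1.36 FPKM in the germline, while the log2 fold change was -1.27, and -0.16 with a pseudocount of 1 FPKM. Among these 6 genes, mRpL16 was the one with both soma values below both germline values.

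Of the 7 genes with an unadjusted limma p under 0.05 towards lower soma values, mRpS26 and mRpS29 fall under the rule for named genes, and mRpL47, mRpS17, mRpL3, mRpL32 and mRpL44 were chosen after their values were seen. The smallest adjusted p of the whole set, 0.0712, was that of mRpL47 (3R, 9514822 to 9515908), whose bacterial relative sits at the exit of the peptide tunnel. Its level was 19.2 and 17.9 FPKM in the soma, against 38.7 and 32.3 FPKM in the germline, a fold change of 0.526 with a 95% interval of 0.339 to 0.817. Over the alternatives its adjusted p ranged between 0.0528, with quantile normalization, and 0.309, without germline replicate 1. The gene mRpS26 followed, with a fold change of 0.466 (0.258 to 0.841) and an adjusted p of 0.0973 in limma.

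The gene mRpS29, the homologue of mammalian DAP3, a GTP-binding protein first described in cell death, had 15.4 and 15.2 FPKM in the soma, against 27.9 and 24.1 FPKM in the germline. This was among the tightest pairs of soma values in the set, with a fold change of 0.591 and an adjusted p of 0.125 in limma. The gene mRpL3, for a core protein near the catalytic centre in bacteria, had 16.1 and 7.18 FPKM in the soma, against 27.1 and 21.5 FPKM in the germline. The gene mRpS17, with a bacterial counterpart, had 12.2 and 6.82 FPKM in the soma, against 19.6 and 19.3 FPKM in the germline. The groups did not overlap in either gene. The values of mRpL32, also with a bacterial counterpart, were 6.75 and 8.06 FPKM in the soma, against 16.0 and 11.8 FPKM in the germline. The mitochondria-specific mRpL44 had 17.3 and 12.3 FPKM in the soma, against 23.7 and 26.1 FPKM in the germline, so that these 7 genes all lay lower in both soma libraries without passing the adjusted threshold.

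Flies carry 3 genes related to the bacterial small subunit protein S18. The gene mRpS18A had 28.5 and 55.8 FPKM in the soma, against 43.9 and 28.01 FPKM in the germline. The gene mRpS18B had 7.91 and 15.04 FPKM in the soma, against 14.98 and 13.4 FPKM in the germline. The gene mRpS18C had 9.05 and 6.14 FPKM in the soma, against 7.73 and 3.13 FPKM in the germline, from 205, 4, 12 and 6 reads. The order of the 3 was the same in both means: mRpS18A was highest, mRpS18B intermediate and mRpS18C lowest, although mRpS18C exceeded mRpS18B in soma replicate 1. The groups overlapped for each of them. Each log2 fold change also turned in sign when a library was left out, to -0.30 for mRpS18A without soma replicate 2, to 0.08 for mRpS18B without soma replicate 1 and to -0.05 for mRpS18C without germline replicate 2. Mammalian structures place the relative of mRpS18A in the large subunit, as they do that of mRpS30, so the symbol is not a sure guide to the subunit. The gene mRpS30 (X, 15786047 to 15788288), the homologue of mammalian PDCD9, had 21.3 and 23.4 FPKM in the soma, against 37.7 and 31.2 FPKM in the germline, without overlap (fold change 0.653, adjusted p = 0.191 in limma).

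In bacteria the proteins L10, L11 and L12 form the stalk and its base, which recruit translation factors to the ribosome. The stalk anchor mRpL10 had 19.5 and 34.1 FPKM in the soma, against 35.8 and 22.6 FPKM in the germline. The base protein mRpL11 had 11.5 and 16.6 FPKM in the soma, against 25.5 and 17.3 FPKM in the germline, both soma values being lower. The factor-binding mRpL12 had 16.5 and 19.8 FPKM in the soma, against 12.9 and 25.4 FPKM in the germline, a fold change of 0.998 with a 95% interval of 0.528 to 1.89. Without soma replicate 1 the log2 fold change was 0.26 for mRpL10 and 0.13 for mRpL12, both turned in sign. A further pair of small subunit genes carries symbols outside the rule. The gene tko, whose product corresponds to bacterial S12 and whose mutation gives bang-sensitive paralysis, had 7.80 and 3.05 FPKM in the soma, against 14.1 and 10.7 FPKM in the germline (adjusted p = 0.158 in limma). The gene bonsai, the S15 counterpart, had 19.7 and 12.4 FPKM in the soma, against 25.3 and 19.1 FPKM in the germline (adjusted p = 0.409 in limma).

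The replicates set the precision of all these values. In the soma, 39 of the 72 genes were within 1.5-fold between replicates and 21 differed by more than 2-fold. In the germline 48 were within 1.5-fold and 5 differed by more than 2-fold. An exact binomial test was made on the reads of each gene of the set. At an unadjusted p under 0.05 it put 27 genes beyond counting error in the soma pair and 27 in the germline pair. The share over all genes is not given for that test, which compares the libraries with each other, not the cell types. As a description across genes that share the libraries, the Spearman correlation of the 72 levels was 0.63 within the soma pair, 0.82 within the germline pair, 0.83 between the first replicates of soma and germline, and 0.74 between the soma and germline means.

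**Figure D3:**
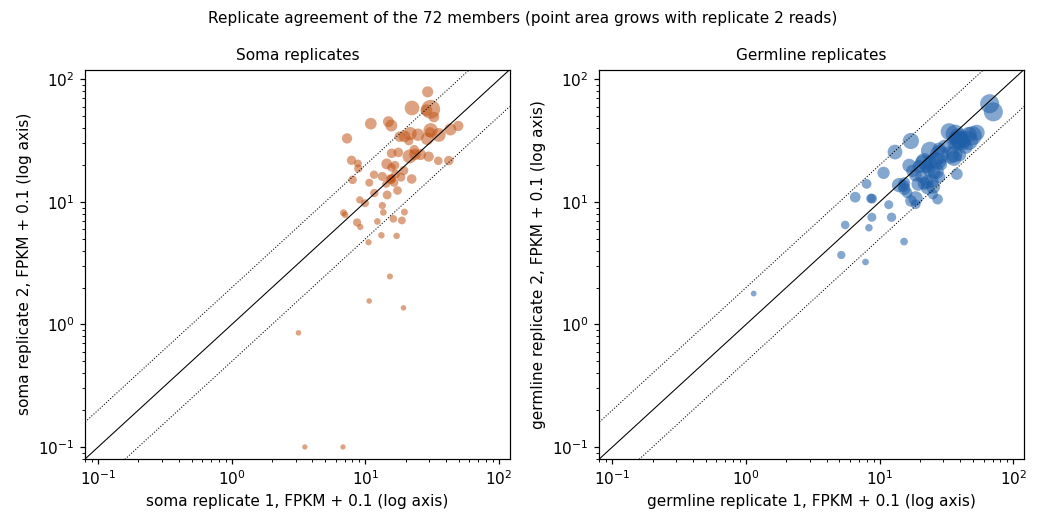
Replicate 2 against replicate 1 for the 72 genes (FPKM + 0.1, log axes), soma on the left and germline on the right. The solid line marks equality, dotted lines 2-fold either way, and the point area grows with the reads in replicate 2. In the soma, 21 genes lie beyond the dotted lines, against 5 in the germline.

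Depth was examined by a split on the mean over all 4 libraries, which favours neither group. The 34 genes whose mean level was worth at least 20 reads in soma replicate 2 had a median log2 fold change of -0.28 with 11 positive, and the other 38 had -0.17 with 13 positive. The SD of the log2 ratio between soma replicates was 0.77 over the 34 genes and 1.74 over the 38. Overlapping exons are a further limit, because whether counting used strand is not given in the sources used here. Of the 73 genes, 43 share at least 1 exon base with another gene, and 8 share more than 20% (mRpL53, mRpS24, mRpS21, mRpS14, mRpL13, mRpS9, mRpL17 and mRpL48), so the reads of these 8 may be split.

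Other genes of the mitochondrial expression system were set beside the ribosomal proteins. Translation factors (8 genes) had a median log2 fold change of -0.44, with 6 negative. The list of mitochondrial aminoacyl-tRNA synthetases (15 genes), enzymes that charge the organelle's tRNAs, had -0.45, with 11 negative. It took the symbols that end in RS-m and also Slimp (log2 fold change 0.99), for which a charging role is not claimed here. In each of these lists limma called 0 genes in either direction at an adjusted p under 0.05, while the unadjusted counts were 0 for the factors and 1 lower for the synthetases. The elongation factor gene EfTuM had 36.8 and 26.03 FPKM in the soma, against 56.5 and 41.3 FPKM in the germline. Its partner CG6412, annotated as mEFTs, had 32.4 and 31.9 FPKM in the soma, against 48.2 and 40.5 FPKM in the germline. Both soma values were lower for both genes, which were chosen after their values were seen.

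Genes for mitochondrial transcription, transcript handling and DNA maintenance (11 tested of 14) had a median of -0.61, with 10 negative and 1 called lower. That gene, mtSSB, for the protein that coats single-stranded mitochondrial DNA during replication, had 0.689 and 0 FPKM in the soma, against 5.33 and 7.67 FPKM in the germline, from 17, 0, 9 and 16 reads. Its log2 fold change was -4.53 (SE 1.11, adjusted p = 0.0437 in limma), and leaving out each library in turn gave -6.02 to -3.04. The adjusted p was then 0.0972 without soma replicate 1 and 0.185 without soma replicate 2, while without either germline library limma called 0 genes in the whole table. The call was also lost with a pseudocount of 0.01 FPKM, with no filter and with no trend, at adjusted p-values of 0.119, 0.0878 and 0.121 in limma. The 13 protein-coding transcripts of the mitochondrial genome are all listed at 0.

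Nuclear genes of the respiratory chain, the complexes that the mitochondrial ribosome helps to build, had a median of 0.04 over 57 genes tested of 74, with 31 positive. Cytoplasmic ribosomal protein genes had a median of 0.10 over 86 tested of 92, with 61 positive. That median averages soma libraries that differed widely for this list. Soma replicate 1 exceeded soma replicate 2 for 2 of the 86 genes, with a median log2 ratio of -1.29, and 65 differed by more than 2-fold. The respiratory chain genes had 0 calls in either direction. At an unadjusted limma p under 0.05, 5 of them, or 8.77%, were higher and 0 lower. Over all genes tested, 16.75% were higher and 11.02% lower at that cut-off, so both shares of the list were below those of all genes. Among the cytoplasmic genes the 1 call was RpS10a, a paralogue, at 0.540 and 0 FPKM in the soma, against 158.3 and 54.8 FPKM in the germline (limma adjusted p = 0.00369). Its log2 fold change was -8.53, and -9.87 to -7.19 on leaving out each library in turn, with an adjusted p of 0.118 and 0.163 without soma replicate 1 and 2. The replicate shift seen in the mitochondrial set was also present in these lists. Germline replicate 1 exceeded germline replicate 2 for 48 of the 57 respiratory chain genes and for 86 of the 86 cytoplasmic genes, with a median log2 ratio of 0.33 and 0.73, against 0.35 for the mitochondrial ribosomal proteins and 0 over all genes tested. The part of these soma and germline shifts in the medians was not tested beyond leaving each library out.

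**Figure D4:**
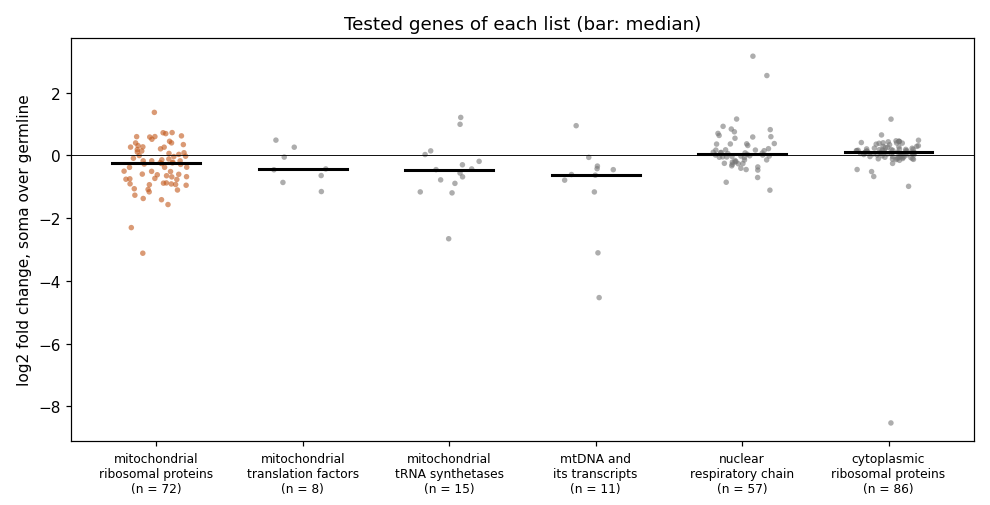
Log2 fold change of soma over germline for each tested gene of 6 lists (points, with horizontal jitter) and the list median (bar). The medians are -0.25 for mitochondrial ribosomal proteins, -0.44 for mitochondrial translation factors, -0.45 for mitochondrial tRNA synthetases, -0.61 for genes of mitochondrial DNA (mtDNA) and its transcripts, 0.04 for the nuclear respiratory chain and 0.10 for cytoplasmic ribosomal proteins.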

How the data were processed

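TRAP libraries of the ovarian soma and germline, 2 each, were grouped by the cell type in the labels. The authors deposited FPKM values per gene, written with decimal commas, which the unit check could not read, so a script checked that every cell was at least 0. The deposited FPKM are normalized values and not raw counts. The submitters' processing notes name cutadapt, FastQC, HISAT2, DESeq2 and the dm6 build, without versions or roles, and the paper's methods an anti-GFP immunoprecipitation and a Nugen Ovation Drosophila RNA-seq kit.

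Coordinates and exon lengths came from Ensembl release 115 (BDGP6.54), which need not be the authors' annotation. Multiplied by exon length and divided by 1 constant per library, the FPKM gave whole reads within 0.03 for 10162 of 10518 genes above 0 (96.6%). Reads are not independent molecules, so floors of 3 reads and 95% intervals on reads cover counting error only. Soma and germline were compared in limma 3.58.1 (R 4.3.3) on log2(FPKM + 0.1), with lmFit, eBayes with a trend and Benjamini-Hochberg adjustment, for genes whose mean reached 0.1 FPKM. The pseudocount understates changes of low genes, but where 1 of the libraries is at 0 it can overstate them. Other steps used Python 3.11.15.

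The genes and lists were chosen with earlier results of these data known. Named were the 6 highest and 6 lowest log2 fold changes, the 5 highest and 5 lowest means, any gene called, the S18 paralogues, the stalk, mRpS29, mRpS30, tko, bonsai, and in other lists the called genes (up to 3 each way). Alternatives were pseudocounts of 1 and 0.01 FPKM, no filter, a filter at a mean of 1 FPKM, median ratio scaling, quantile normalization, no trend, a replicate block, limma-voom on recovered reads and each library left out. A split by mean level was added after seeing the data. No sequence was printed, and promoters were not analysed here.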

Additional observations from a re-analysis of the deposited data

How the results depend on the processing

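The 0 calls in each direction held under every alternative except the replicate block. Median ratio scaling hardly differed from the main fit, with a median log2 fold change of the set of -0.247, against -0.248. Of the 72 genes, the block called 1 higher in the soma (mRpS28) and 5 lower (mRpS25, mRpL3, mRpS26, mRpL15 and mRpL55). Over all 8823 genes it called 968 higher and 581 lower, so these calls are not read as a result about the set. With the block, 1 gene of the set was past 5-fold at an unadjusted p under 0.05 in the germline direction. The share over all genes past these cut-offs with the block is not given here. Whether equal replicate numbers mark a shared day or batch is not stated, so the main fit had no block. The deviations of the first replicates from their group means had a correlation of -0.07 over 8823 genes. With 2 libraries in each group, this value cannot decide whether the libraries were paired. Leaving out each library gave 0 to 1 genes past 5-fold at an unadjusted p under 0.05 towards the soma and 0 to 6 towards the germline, the highest of both without soma replicate 1, and a median of -0.46 to -0.07. Without either germline library limma called 0 genes of the whole table. A lone library is assumed to vary like the other group. Quantile normalization moved the median of all genes to -0.17 and that of the set to -0.36, both on the log2 scale, with calls over all genes split 629 higher to 393 lower, against 762 to 317, and limma-voom split them 918 to 656. Without a trend it was 451 to 37.

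The mtSSB call (1 gene in its list) became 0 with a pseudocount of 0.01, no filter or no trend, and 0 to 0 on leaving out a library, while the block gave 2. For cytoplasmic ribosomal proteins, limma-voom called 1 higher, quantile normalization 2 lower, and leaving out a library 0 to 0 lower. For the respiratory chain the block called 1 higher, and leaving out a library 0 to 2.

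Some log2 fold changes turned sign, none of them past a threshold. Leaving out each library gave -0.54 to 0.26 for mRpL10 (positive without soma replicate 1 and, at 0.19, without germline replicate 1), -0.49 to 0.48 for mRpL12 (positive without germline replicate 2 and, at 0.13, without soma replicate 1), -0.32 to 1.12 for mRpL33, -3.84 to 1.30 for mRpL34, -2.76 to 0.018 for mRpL52, -0.11 to 1.31 for mRpL9 (-0.082 without germline replicate 2), -0.30 to 0.67 for mRpS18A (-0.14 without germline replicate 2), -0.83 to 0.084 for mRpS18B, -0.052 to 1.23 for mRpS18C and -0.23 to 0.66 for mRpS5. The turns in mRpL33, mRpL34, mRpL52 and mRpS5 came without soma replicate 2, that in mRpS18B without soma replicate 1 and that in mRpS18C without germline replicate 2. With limma-voom the values were -0.12 for mRpL33, 0.82 for mRpL34 and -0.10 for mRpS18A. The cause of these changes was not tested. Of the other named values, 395 kept direction and side of the threshold. Depth in soma replicate 2 limits genes with few reads there. An earlier split on reads in that library alone was dropped, because it selects low soma values.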
